A study of Mus musculus with 9 samples.

Results

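HOX13 binding was described around 6 genes of the dachshund, sine oculis-related and eyes absent families, namely Dach1, Six2, Six4, Eya1, Eya2 and Eya4, out of 21728 protein-coding genes in the annotation. These genes were chosen by name, and a site was assigned to a gene when its summit lay in the gene body or within 100 kb on either side of it (mm10, GENCODE). Overlapping intervals of all lists were merged into sites, which gave 298 sites around the 6 genes out of 199969 in all. The gene bodies span chr14:97786853-98169765 (Dach1), chr17:85684277-85688274 (Six2), chr12:73099609-73113456 (Six4), chr1:14168954-14310235 (Eya1), chr2:165595032-165771727 (Eya2) and chr10:23102963-23350786 (Eya4), and all but Eya2 lie on the minus strand.

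The data came from CUT&RUN, in which an antibody brings micrococcal nuclease to a DNA-bound protein and the released fragments are sequenced. Antibodies against HOXA13 and HOXD13, homeodomain transcription factors of the future digits, were used on distal forelimb cells of mouse embryos of the B6CBAF1 strain, without treatment. Wild-type (wt) embryos were used at E12.5, with 3 libraries for each antibody. Homozygous embryos of the II1 T-DOM 542 line (542) were used for HOXA13 at E12.5, with 2 libraries, and for HOXD13 in a single library whose label says E11.5. In the 542 line a copy of the HoxD enhancer II1, with a HBB promoter and a lacZ reporter, sits in T-DOM, the regulatory domain telomeric to the HoxD cluster; its native copy is still in place. Cells of individual embryos were pooled in the study, the 542 line comes from 1 founder, and wt HOXD13 replicate 3 is, by its label, a reprocessed library of an earlier series. No control library was used at peak calling. Peak lists hold no expression values, so the tissue label could not be checked against marker genes.

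Each library was deposited as its own list, with 23939 to 117719 intervals, made from an estimated 36.9 to 65.5 M read ends (M, mega). Wt HOXD13 replicate 1 had the shortest list. Replicate 3 of both antibodies stood apart, in that 12.7% and 12.8% of their intervals reached a fold enrichment of 5 for HOXA13 and HOXD13 respectively, where the share was 20.8 to 32.1% in wt replicates 1 and 2. Reads of the 542 libraries were mapped on a mutant genome and wt reads on mm10, so genotype and mapping genome cannot be told apart, and Eya2, which lies on chromosome 2 beyond the insertion, was described in the wt lists alone.

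SIX2 and SIX4 are homeodomain transcription factors, EYA proteins are their transcriptional coactivators and also carry a tyrosine phosphatase domain, and DACH proteins are nuclear cofactors related to SKI and SNO. The families act together in organ formation, first described as the sine oculis, eyes absent and dachshund genes of the fly eye, and in the limb they are known from mesenchyme, tendon and muscle precursors. HOX13 proteins specify the digits and bind both promoters and distant enhancers.

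The sites called in most lists around these genes lay away from the promoters of the genes. The HOX13 consensus was searched in all named sites, and sequences of 7 are shown, those with a match taken first. Most named sites held no match, so 4 of 7 is not the rate among them. Each run is 120 bp around the highest summit, on the plus strand of mm10 (RefSeq sequence of GRCm38), written in lower case with every match to CCNATAAA, CCNGTAAA, CTNATAAA or CTNGTAAA, on either strand, in capitals. The first 4 hold a match: an intron of Dach1 (chr14:98116620-98116739), a site downstream of Six4 (chr12:73020843-73020962), a site downstream of Eya1 (chr1:14146171-14146290) and a site upstream of Eya4 (chr10:23379419-23379538). The last 3 hold none and are the leading sites of the genes not otherwise represented among distal sites shared by both antibodies, near Six2 (chr17:85664559-85664678), in Eya2 (chr2:165732682-165732801) and in Eya4 (chr10:23332822-23332941).
Dach1 intron: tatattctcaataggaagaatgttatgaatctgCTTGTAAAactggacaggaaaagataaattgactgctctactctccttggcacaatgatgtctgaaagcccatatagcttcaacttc
Six4 downstream: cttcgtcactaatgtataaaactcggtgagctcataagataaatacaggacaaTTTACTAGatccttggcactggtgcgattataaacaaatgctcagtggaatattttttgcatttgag
Eya1 downstream: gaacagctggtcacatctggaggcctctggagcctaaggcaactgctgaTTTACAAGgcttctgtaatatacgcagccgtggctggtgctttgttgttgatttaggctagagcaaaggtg
Eya4 upstream, HOXA13 lists: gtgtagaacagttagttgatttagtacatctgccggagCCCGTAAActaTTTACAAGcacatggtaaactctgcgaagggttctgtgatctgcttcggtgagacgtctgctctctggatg
Six2 downstream: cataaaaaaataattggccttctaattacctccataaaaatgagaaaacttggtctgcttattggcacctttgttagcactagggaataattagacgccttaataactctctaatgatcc
Eya2 intron: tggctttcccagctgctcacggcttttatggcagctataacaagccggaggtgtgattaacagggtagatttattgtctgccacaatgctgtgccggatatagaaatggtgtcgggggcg
Eya4 intron: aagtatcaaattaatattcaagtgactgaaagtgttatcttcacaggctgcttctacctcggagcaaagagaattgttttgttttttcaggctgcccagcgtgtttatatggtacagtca

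In 50 bp around the highest summit the consensus was present at 2 of the 19 sites around these genes that were called in all 6 wt lists, those downstream of Six4 and of Eya1. Among all sites called in all 6 wt lists the share was 14.3%, and 2 of 19 was near that background. Windows 1000 bp to either side held it in 2.25% of all cases and in 2 of 38 around these genes. Over the 120 bp shown above, 3 of the 19 sites and 28.4% of all 13953 such sites had a match. The upstream Eya4 site carried 2 matches, which do not overlap each other. A match is a description of the letters and not a measured site of binding.

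The first comparison asked how many wt lists shared each site. Of the 298 sites, 213 were called in a wt list, where 133484 of all 199969 sites were. The other 85 were called in 542 lists alone. They lay among the 245 sites off chromosome 2, since 542 lists were not used for Eya2. Both antibodies called 93 of the 213, or 43.7%, beside 43.5% of all sites of any wt list. Wt HOXA13 lists alone called 87, or 40.8%, beside 37.1%, and wt HOXD13 lists alone called 33, or 15.5%, beside 19.3%. The wt HOXD13 lists include the shortest list, and these shares were not tested. A single wt list held 102 of them, and all 6 wt lists held 19, or 8.92%, beside 10.5% of all sites of the genome. Without wt HOXD13 replicate 1, 30 sites stood in all of the remaining wt lists, or 14.2%, beside 14.7% of all sites. The share of sites in 2, 3, 4 or 5 wt lists was also within a few percentage points of the genome.

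**Figure D1:**
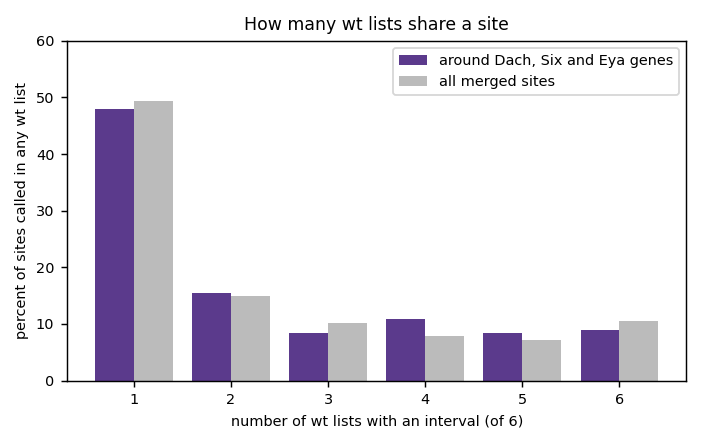
Percent of sites (y axis) by the number of wt lists that called them (x axis), for the 213 sites around the 6 genes and for all sites of the genome called in any wt list. In both, about 48 to 49% of the sites stood in 1 list, and 8.92% and 10.5% stood in all 6.

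Of the 19 sites found in all 6 wt lists, Dach1, the longest of these genes, held 6, 5 of them in introns, out of 50 sites called in a wt list. Six4 had 5 of 25, Eya2 3 of 53, Six2 2 of 26, Eya1 2 of 21 and Eya4 1 of 38. No test was made of how they were spread over the genes. By position 8 were intronic, 8 upstream, 3 downstream and none at a promoter of the 6 genes. In the window of Six4, 1 lay at the start of Mnat1, a subunit of the CDK-activating kinase, 3 more lay inside Mnat1, and 1 lay downstream of Six4. An upstream site of the Eya2 window lay inside Slc2a10, 6.33 kb from its start. Which gene a site acts on cannot be read from these lists.

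**Figure D2:**
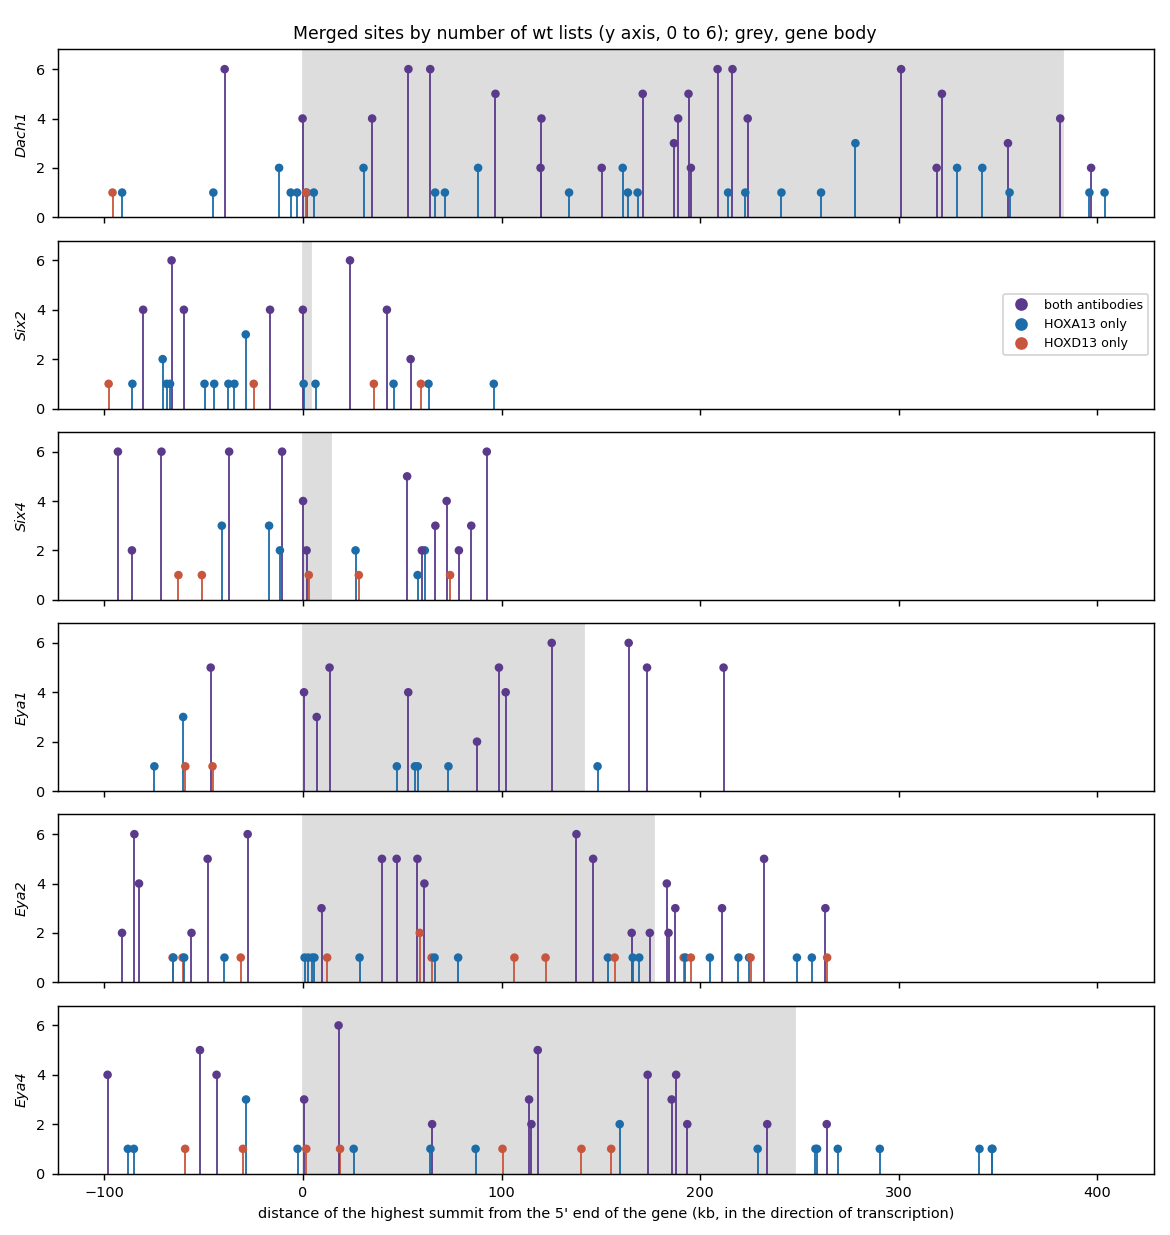
Sites called in any wt list around the 6 genes, by distance of the highest summit from the 5' end of the gene record (x axis, kb, positive in the direction of transcription) and number of wt lists (y axis). Grey marks the gene body, and colours tell apart sites called with both antibodies, HOXA13 alone and HOXD13 alone. The 19 sites at a height of 6 lie outside the promoters of the 6 genes.

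A promoter site was one with its summit within 1 kb of an annotated start. No promoter of the 6 genes was called in all 6 wt lists, where 20.4% of protein-coding genes had such a site. Dach1, Six4, Eya1 and Eya2 were called at a promoter in all 3 wt HOXA13 lists and 1 wt HOXD13 list, Six2 in 2 of each, and Eya4 in 2 wt HOXA13 lists and 1 wt HOXD13 list. Wt HOXD13 replicate 1, the shortest list, called none of them, and replicate 3 called that of Six2 alone. The Eya2 site (chr2:165655953-165656743) belongs to an internal start, 862 bp from it, and lies in an intron of the longer transcript.

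For each interval the percentile of its fold enrichment, the pileup of reads over the local background with 1 added to each, was taken within its own list. At the Dach1 promoter (chr14:98169764-98170127) the percentiles were 27.1, 3.27 and 19.2 in wt HOXA13 replicates 1 to 3 and 3.86 in wt HOXD13 replicate 2. The Six2 promoter (chr17:85688113-85688913) stood higher, at 73.7 and 55.7 in wt HOXA13 replicates 1 and 2 and at 68.8 and 53.3 in wt HOXD13 replicates 2 and 3. Six4 (chr12:73111898-73114006) and Eya1 (chr1:14309135-14310434) had sites over their starts and 5' exons. The percentiles of Six4 were 50.9, 46.8 and 37.5 in wt HOXA13 replicates 1 to 3 and 65.5 in wt HOXD13 replicate 2. Those of Eya1 were 72.6, 42.5 and 29.3, and 72.2 in wt HOXD13 replicate 2. Those of Eya2 were 54.2, 38.8 and 21.5, and 23.0 in wt HOXD13 replicate 2. That of Eya4 (chr10:23350026-23350843) was at 16.0 and 18.8 in 2 wt HOXA13 lists and at 67.5 in 1 wt HOXD13 list. In the wt lists that called them, the promoter sites ranged from 3.27 to 73.7.

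The second comparison asked whether the antibodies differed in the number of intervals per gene, given per 10000 intervals of the list because lists differed in length. Around all 6 genes wt HOXA13 lists held 135, 100 and 110 intervals and wt HOXD13 lists 35, 113 and 58. These were 17.3 ± 1.83 per 10000 for wt HOXA13 (SD, n = 3) and 14.9 ± 0.44 for wt HOXD13 (SD, n = 3). Every wt HOXA13 library was above every wt HOXD13 library, with a ratio of geometric means of 1.15 (two-sided exact permutation p = 0.1, the smallest that 3 against 3 can give). The difference did not pass 0.05 and could not have done so.

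Eya4 showed the largest ratio of the 6 genes. Wt HOXA13 lists held 22, 14 and 21 intervals around it and wt HOXD13 lists 2, 16 and 8, or 2.86 ± 0.70 and 1.68 ± 0.73 per 10000 (SD, n = 3 each). The groups did not overlap, the ratio was 1.81, and the two-sided exact permutation p was 0.1, or 0.6 after Benjamini-Hochberg adjustment over 6 genes. Without wt HOXD13 replicate 1, which had the 2 intervals, the difference fell from 0.86 to 0.42 on the log2 scale. Dach1 had 34, 26 and 32 intervals in wt HOXA13 lists and 10, 20 and 16 in wt HOXD13 lists, a ratio of 1.28 (exact permutation p = 0.4, adjusted 0.72), and its groups overlapped per 10000.

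The other 4 genes had overlapping groups too. For Six2 the counts were 12, 13 and 12 against 3, 12 and 5, with a ratio of 1.35 (exact permutation p = 0.2, adjusted 0.6). For Eya1 they were 16, 15 and 13 against 3, 14 and 10, with a ratio of 1.21 (exact permutation p = 0.6, adjusted 0.72). Six4 and Eya2 leaned the other way. Six4 had 18, 13 and 17 against 6, 20 and 9, a ratio of 0.955 (exact permutation p = 0.8, adjusted 0.8), which turned to HOXA13 with flanks of 50 kb. Eya2 had 33, 19 and 15 against 11, 31 and 10, a ratio of 0.867 (exact permutation p = 0.5, adjusted 0.72), which turned to HOXA13 when fold enrichments under 5 were left out.

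**Figure D3:**
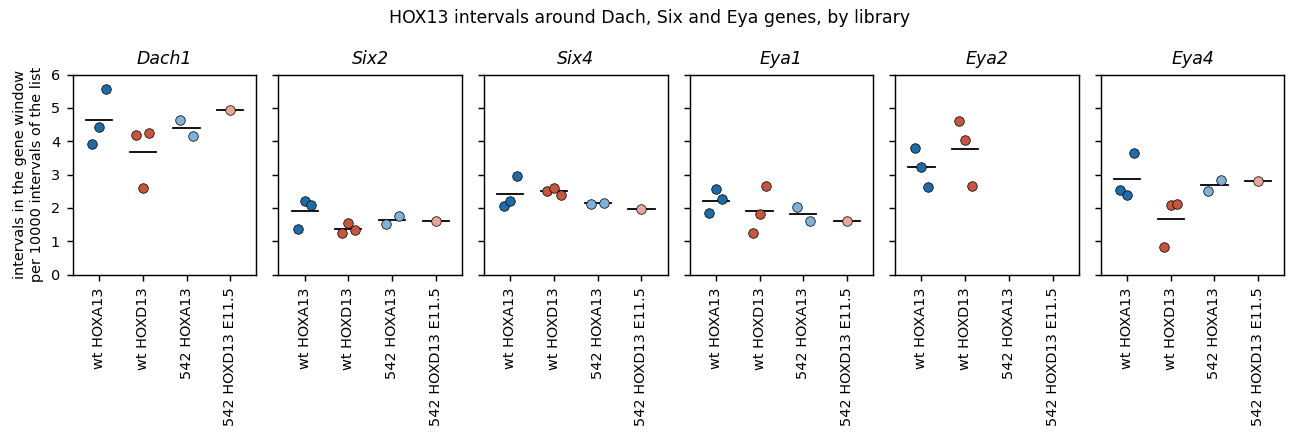
Intervals in the window of each gene per 10000 intervals of the list (y axis), 1 point per library, in the 4 groups (x axis), with group means as lines. The groups of both wt antibodies separate for Eya4 alone, at 2.39 to 3.66 for HOXA13 and 0.84 to 2.13 for HOXD13; Eya2 has no 542 values.

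The number of intervals per Mb of window was ranked among 21728 protein-coding genes in each list. The median percentile over the wt lists was 94.9 for Six4, 88.4 for Eya2, 74.7 for Dach1, 72.8 for Six2, 66.1 for Eya1 and 55.4 for Eya4. The percentile of a gene varied by library, from 25.5 to 89.2 for Eya4 and from 88.1 to 99.3 for Six4. The ranges of all pairs of genes overlapped, except those of Six4 and Eya1 (40.1 to 81.8). Windows of Six4, Six2 and Eya2 hold other protein-coding genes, and those of Dach1, Eya1 and Eya4 hold none.

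At single sites, fold enrichment was compared between the antibodies by its percentile within each list. Of the 19 shared sites, 5 had every wt HOXA13 percentile above every wt HOXD13 percentile, and none had the reverse. The shares among all sites called in all 6 wt lists were 12.48% and 2.87%. The mean percentile was higher for HOXA13 at 16 of the 19 sites and at 72.5% of all such sites. A percentile also depends on the other intervals of its list, and the lists differed in length. The median percentile of the shared sites was 86.7, 86.9 and 72.2 in wt HOXA13 replicates 1 to 3, with 86941, 58642 and 57367 intervals. In wt HOXD13 it was 63.4, 86.7 and 63.9, with 23939, 76838 and 37589 intervals. The part of list length in these differences was not tested. None of the named sites passed 0.05, since 0.1 is the smallest possible p, and the 5 sites without overlap had 0.22 after adjustment over 11 sites (exact permutation).

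Dach1 had a pair of these sites. The upstream one (chr14:98208448-98210020), 39.7 kb from the start and outside any gene, had fold enrichments of 9.43, 10.1 and 6.53 in wt HOXA13 replicates 1 to 3 and 5.57, 5.68 and 3.95 in wt HOXD13. Its pileups were 68, 74 and 87 read ends against 35, 41 and 27. The within-list percentiles were 92.3, 96.2 and 96.6 for HOXA13 and 83.3, 84.3 and 68.1 for HOXD13, so the groups did not overlap (difference of means 16.5, two-sided exact permutation p = 0.1). The summit of wt HOXD13 replicate 3 lay near chr14:98209500, where those of the other lists lay between about 98209100 and 98209200. The intronic one (chr14:98116292-98117376), 52.9 kb inside the gene, had values of 86.7, 86.9 and 88.1 in the wt HOXA13 lists, and of 48.9, 86.0 and 44.5 in wt HOXD13. There 1 of the 3 wt HOXD13 libraries was within 1 percentile of wt HOXA13. At this intronic site the summit of wt HOXD13 replicate 3 lay near chr14:98117100, and those of the other lists between about 98116600 and 98116900.

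The other 4 Dach1 sites shared by all 6 wt lists were also intronic. The one farthest from the start (chr14:97867705-97869326), 301 kb inside the gene, stood at 94.0, 93.7 and 72.2 in wt HOXA13 and at 53.5, 91.1 and 67.5 in wt HOXD13. A neighbouring pair, at 216 kb (chr14:97952731-97954052) and 209 kb (chr14:97960400-97961839), gave 38.9 to 86.7 in wt HOXA13 and 60.4 to 73.5 in wt HOXD13. At the 63.9 kb site (chr14:98105102-98106425) replicates 1 and 2 of wt HOXA13 reached 96.5 and 97.3 and replicate 3 only 48.1, and wt HOXD13 replicate 2 reached 94.9 where replicates 1 and 3 had 59.4 and 40.8. At these 4 sites the antibodies overlapped, and the range over the wt HOXA13 replicates was wider than the difference between the means of the antibodies.

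Near Six2 the leading site lay downstream (chr17:85664084-85665320), 23.6 kb from the start and between Six2 and Six3. Fold enrichments were 11.2, 10.6 and 7.51 in wt HOXA13 and 6.10, 6.17 and 3.28 in wt HOXD13, and the percentiles were 96.0, 96.9 and 98.6 against 88.2, 87.2 and 42.1. Wt HOXD13 replicate 3 was far below the other two, and the difference of means, 24.7, was 9.45 without it. In that library the site held 2 intervals, and its value came from a summit near chr17:85665200. The summits of the other lists lay between about 85664500 and 85664700, so its value belongs to another position within the merged site. In the 542 HOXA13 lists the percentiles of this site were 99.7 and 98.3. The second Six2 site (chr17:85754138-85754828), 66.2 kb upstream, was of middle rank, from 35.4 to 62.3 for HOXA13 and from 1.24 to 52.4 for HOXD13, and the 542 HOXD13 list did not hold it.

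The site downstream of Six4 (chr12:73020418-73021706), with the consensus, was among the top of nearly every list. It lay 92.5 kb from the Six4 start and 26.3 kb from the start of another protein-coding gene. For none of the 5 shared sites of this window was the nearest protein-coding start that of Six4. The percentiles of the downstream site were 97.5, 96.8 and 97.8 for wt HOXA13 and 90.9, 98.4 and 93.3 for wt HOXD13, and 97.2, 96.6 and 98.0 in the 542 lists. The antibodies overlapped (difference 3.18, exact permutation p = 0.4). The upstream site inside Mnat1 (chr12:73183797-73185658) was at 79.7 to 82.1 for wt HOXA13 and 79.3 to 89.0 for wt HOXD13, and it was 1 of the 3 shared sites whose mean was higher for HOXD13. All 3 lay upstream of Six4 and inside Mnat1.

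The remaining shared sites of this window lay upstream of Six4. The one at the start of Mnat1 (chr12:73123360-73124600) had percentiles of 62.9, 44.7 and 2.36 in wt HOXA13 replicates 1 to 3 and 82.6, 90.9 and 4.86 in wt HOXD13, so that replicates 3 of both antibodies were the lowest. The next (chr12:73149685-73151386), 37.2 kb upstream, stood at 71.1 to 88.4 in wt HOXA13 and at 84.8, 80.7 and 21.8 in wt HOXD13. The farthest (chr12:73205961-73207808), 93.2 kb upstream, ranged from 32.8 to 77.1 and from 12.4 to 82.1. None of them separated the antibodies.

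The leading Eya2 sites had the highest fold enrichments of the named sites in the wt HOXA13 replicates 1 and 2. In an intron (chr2:165732034-165733456), fold enrichment reached 16.2, 14.05 and 4.17 in wt HOXA13 replicates 1 to 3 and 8.28, 10.2 and 4.05 in wt HOXD13. Both replicates 3 were lower, with pileups of 37 and 27 read ends against 55 to 344 in the others, and percentiles of 75.6 and 71.2 against 97.2 to 99.6. The difference between antibodies was 2.71 (exact permutation p = 0.5), less than that between replicates of either antibody. At the upstream site (chr2:165566780-165567992), 27.9 kb from the start, all 6 lists lay within a few percentiles, at 96.8 to 99.0 for HOXA13 and 96.3 to 96.8 for HOXD13, and the groups did not overlap (difference 1.44, exact permutation p = 0.1). The remaining shared site of Eya2, inside Slc2a10 (chr2:165509732-165510344), had 81.0, 69.6 and 75.0 in wt HOXA13 and 49.3, 86.7 and 68.8 in wt HOXD13.

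At Eya1 the downstream site (chr1:14145672-14147161), which holds the consensus, had percentiles of 92.4, 94.0 and 69.1 for wt HOXA13 and 39.1, 90.2 and 66.7 for wt HOXD13. The intronic site (chr1:14184276-14185560) stood at 66.8, 69.5 and 64.4 for wt HOXA13 and 52.1, 56.4 and 63.9 for wt HOXD13, without overlap (exact permutation p = 0.1). It was higher in the 542 lists, at 87.3 and 88.9 for HOXA13 and 89.6 for HOXD13, a difference that was not tested. At Eya4 the intronic site (chr10:23332283-23333718), 17.0 kb from the nearest start, had 92.2, 85.6 and 90.2 in wt HOXA13 lists, whereas wt HOXD13 gave 13.3, 83.1 and 94.4. The single low value belongs to wt HOXD13 replicate 1, with 16 read ends at the summit, and without that library the difference was 0.54 where it had been 25.7. The summit of that library lay near chr10:23332600, where those of the other lists lay between about 23332800 and 23333000. A second Eya4 site (chr10:23401846-23403712), 51.9 kb upstream, was called in 5 wt lists.

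**Figure D4:**
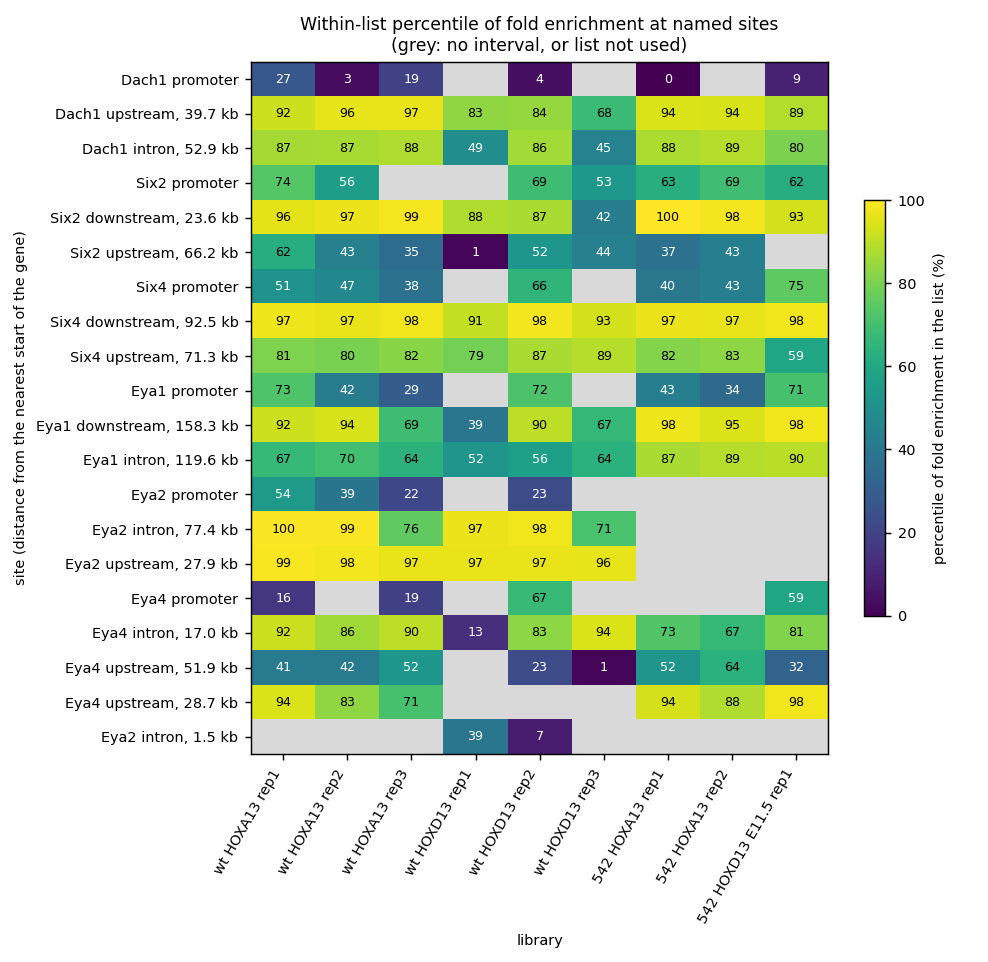
Percentile of fold enrichment within each list (colour and number) at the named sites (rows, with the distance from the nearest annotated start) in the 9 libraries (columns). Grey cells have no interval, or belong to 542 lists, which were not used for Eya2. Each promoter row has at least 2 grey cells among the 6 wt lists, and the row downstream of Six4 lies between 90.9 and 98.4 throughout.

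Sites of 1 antibody were counted when at least 2 of its wt lists and none of the other antibody held them. HOXA13 had 17 such sites, 7 at Dach1, 5 at Six4, 2 each at Six2 and Eya4 and 1 at Eya1, or 7.98% of the 213 where all sites gave 6.63%. HOXD13 had 1, at Eya2, or 0.469% where all sites gave 0.481%. Neither share was far from its background. The HOXA13 count depended on the lists compared: it was 42 without wt HOXD13 replicate 2, the longest wt HOXD13 list, and 6 without wt HOXA13 replicate 1 (10 without replicate 2). As shares these were 22.1%, 3.30% and 4.93%, beside 19.3%, 1.86% and 3.63% of all sites under the same settings. Only 6 of the 17 were in all 3 wt HOXA13 lists.

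The leading HOXA13 site of this kind lay 28.7 kb upstream of Eya4 (chr10:23378931-23380035). Its percentiles were 94.2, 83.4 and 70.8 in wt HOXA13 replicates 1 to 3, from 70, 41 and 29 read ends, and no wt HOXD13 list held it. The 542 lists held it with both antibodies, at 93.7 and 88.0 with the HOXA13 antibody and at 98.0 with HOXD13 at E11.5, from 202 read ends (exact Poisson 95% interval 175 to 232, counting error only). That interval takes read ends as independent, although they come in pairs and the listed commands keep duplicates. The same Eya4 site is shown above with 2 matches to the consensus.

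More generally, 13 of the 17 sites held by wt HOXA13 and no wt HOXD13 list were in the 542 HOXD13 E11.5 list, beside 62.4% of all sites of that class. These 13 were therefore missing from the wt HOXD13 lists and not from every HOXD13 list. The single HOXD13 site (chr2:165653418-165653917), in an intron of Eya2 and 1.48 kb from an internal start, was weak, at percentiles of 39.2 and 7.47 in replicates 1 and 2, and the count was 0 without either.

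The third comparison set wt HOXA13 beside 542 HOXA13 lists for the 5 genes off chromosome 2. Wt lists held 102, 81 and 95 intervals and 542 lists 127 and 93, or 14.03 ± 2.42 (SD, n = 3) and 12.7 ± 0.22 per 10000 (SD, n = 2). The ratio was 1.10 and the groups overlapped (two-sided exact permutation p = 0.6, smallest possible 0.1). Over replicates 1 and 2 alone, the log2 difference of 0.13 was 0.0077, both with the replicate number as a block (exact sign-flip permutation p = 1) and without it. No gene passed the test, with adjusted p = 0.9 for each of the 5 (exact permutation).

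The sites themselves were largely shared between the genotypes. Of 47 sites called in all 3 wt HOXA13 lists, 44 were in both 542 HOXA13 lists, beside 93.8% of all such sites. Of the 3 others, 2 were in neither 542 HOXA13 list, 1 in Dach1 and 1 in Eya4, both intronic. In the other direction 7 sites of the 181 held by any HOXA13 list were in both 542 and no wt HOXA13 list, where all sites gave 5.99%. The 16 sites off chromosome 2 that all 6 wt lists held were all in both 542 HOXA13 lists, beside 98.4% of all sites of that class.

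The 542 HOXD13 library at E11.5 held 58 intervals around Dach1, 33 around Eya4, 23 around Six4 and 19 each around Six2 and Eya1, or 12.9 per 10000 for the 5 genes. It has no replicate, and its stage and genotype differ from those of the wt HOXD13 libraries at once, so no comparison was made. It held 14 of the 16 sites above, beside 93.5% of all sites of that class. It alone held 46 of the 245 sites that could be compared over 9 lists, beside 19.4% for all sites. These had a median percentile of 20.6 in that list, whereas all its sites around the 5 genes had 50.5.

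Other genes of the network were counted in the same way, from a list of 15 that holds Six3, Six5, Six6, Eya3, Dach2, Pax genes, Ski, Skil and Sobp. Of these, 2 had a promoter site in all 6 wt lists, Six5 and Skil, and 2 had none in any wt list, Six3 and Pax3. At least 1 site in all 6 wt lists was found in 12 of the 15 windows, with 0 to 9 a window. The median share of window sites in all 6 wt lists was 6.67% for them and 8.61% for the 6 genes described here. The window of Six3 overlaps that of Six2 and the window of Six6 that of Six4, so some of these sites are counted in both.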

How the data were processed

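The deposited peak lists of HOXA13 and HOXD13 CUT&RUN libraries from mouse distal forelimb were analysed. Samples were grouped by the titles; the growth protocol gives a single collection day, whereas 1 title says E11.5. According to the methods, adapters were trimmed with Cutadapt, read pairs mapped with bowtie2 (wt on mm10, 542 on its mutant genome), alignments kept at a mapping quality of 30 or more, and peaks called per sample with MACS2 on read ends extended to 200 bp, at a q-value of 0.05 and without control. The paper's reporting summary says that PCR duplicates were removed, whereas its listed commands mark and keep them. Kept duplicates would raise pileups.

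The score column of the authors is the −log10 q-value scaled to an integer. Their fold enrichment, as deposited, is the ratio of the pileup to the local background, with 1 added to each. The deposited −log10 p-values and −log10 q-values come from a Poisson test of that pileup. Summit offsets were used as deposited.

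Rows of equal start and end were joined into 1 interval. Pileups were recovered from the fold enrichment and −log10 p-value, and were whole within 0.01 for at least 99.9% of summits. Depth was estimated from the lowest recovered background of each list, and the error of this estimate was not tested. Intervals sharing at least 1 bp were merged into sites across lists. Coordinates are 1-based, with genes from GENCODE on GRCm38 and sequence from RefSeq GRCm38.p6, both the assembly of mm10. A class was promoter (1 kb from a start), exon, intron, upstream or downstream. The 542 lists were not used on chromosome 2 beyond the insertion.

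Tests were two-sided exact permutation tests of log2 intervals per 10000 (0.5 intervals where none) or of percentiles, adjusted by Benjamini-Hochberg; with 3 against 3 or 3 against 2 they cannot go below 0.1. Replicates may share technical sources, so p-values measure the spread between libraries. The 6 genes and lists were chosen with earlier results of these data known. Named sites were, per gene, the promoter site and 2 other sites called in most lists (ties by median wt percentile), and up to 2 sites per class of 1 antibody; 1 site and 1 gene of the lists are not reported here. Alternatives were other fold, q, flank, ranking, merging and consensus settings, each replicate left out, the replicate block and, chosen after seeing the data, both libraries numbered 3 left out.

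Same-numbered wt libraries deviated together from their antibody means over 20277 merged top intervals, with correlations of 0.111, 0.142 and 0.348. HOXA13 replicate 1 with HOXD13 replicate 2 gave 0.219, and HOXA13 replicate 2 with HOXD13 replicate 1 gave 0.146. Only for replicate 3 was the same-numbered pair the highest, so these values do not settle the pairing. The numbers in the titles were used as blocks all the same, and the correlations cover wt libraries alone. Scripts were tested on simulated data. The tools were samtools 1.23.1 and Python 3.11.15 with scipy 1.17.1, numpy 2.4.6, pysam 0.24.0, matplotlib 3.10.9 and pandas 2.3.3.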

Additional observations from a re-analysis of the deposited data

Results flagged for a closer look

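A count outside the replicated comparisons came from a single library. The 542 HOXD13 library labelled E11.5 alone held 46 sites around the 5 genes off chromosome 2, 21 of them at Dach1, 8 at Eya4, 6 each at Six2 and Eya1 and 5 at Six4. These were 18.8% of the 245 sites, and the same class held 19.4% of all sites, so the share was near the background. By position 29 were intronic, 8 downstream, 7 upstream and 2 at a promoter. This list was also the longest of the 9, with 117719 intervals, and the part of its length in the count was not tested.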

How the results depend on the processing

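The lists differ in length and 3 against 3 libraries cannot reach 0.05. The difference between antibodies around all 6 genes kept its direction in every alternative run, between 0.11 and 0.52 on the log2 scale, and so did that between wt and 542 HOXA13, between 0.0077 and 0.26; the block changed no call. With both libraries numbered 3 left out the antibodies differed by 0.15 (exact permutation p = 0.33).

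Sites in all 6 wt lists, 19 as reported, were 2 at a fold enrichment of at least 5, 9 at a −log10 q of at least 5, 34 with flanks of 200 kb and 30 with both libraries numbered 3 left out, and 19 to 30 with single libraries left out (30 without wt HOXD13 replicate 1). The 17 sites of wt HOXA13 alone became 11, 9 and 28 under the first 3 of these, 26 with summits chained within 200 bp, and 6 to 42 with single libraries left out. As shares of the sites of any wt list, those 11, 9, 28 and 26 were 21.2%, 8.18%, 8.67% and 8.44%. All sites gave 15.01%, 9.72%, 6.63% and 6.93% under the same settings. For sites in all 6 wt lists, the shares behind 2, 9 and 34 were 3.85%, 8.18% and 10.5%. All sites gave 5.93%, 10.5% and 10.5% there. With both libraries numbered 3 left out, the 30 sites were 17.8%, beside 16.2% of all sites. The 1 site of wt HOXD13 alone became 0 at the −log10 q limit, 2 with chained summits, and 0 to 1 with single libraries left out (0 without wt HOXD13 replicate 1 or 2). Sites with HOXA13 above HOXD13, 5 as reported, were 1 and 3 at the fold and q limits. Those with the consensus, 2 as reported, were 1 at either limit and with flanks of 50 kb, 5 with flanks of 200 kb, and 0 for CCAATAAA alone. Fewer intervals or a wider window enter these counts by construction; for the consensus the cause was not tested.

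Reversals touched values that no test had called, on the log2 scale. Between antibodies Six4 gave 0.26 with flanks of 50 kb and -0.22 to 0.036 with libraries left out, Eya1 gave -0.00020 to 0.54 with libraries left out, and Eya2 gave 0.30 at the fold limit and 0.14 in the top 20000 intervals. Between wt and 542 HOXA13, Dach1 gave -0.0093 at the q limit, -0.040 with flanks of 200 kb, -0.079 with the replicate block and -0.079 to 0.18 with libraries left out. Six2 gave -0.021 at the q limit and Eya1 -0.23 in the top 20000 intervals. Eya4 gave -0.38 and -0.42 at the fold and q limits, -0.071 over summit rows, -0.12 with the replicate block and -0.12 to 0.19 with libraries left out. Among sites, in percentiles, the upstream Six2 site gave -1.03 to 24.6 and the intronic Eya2 site -6.10 to 10.7 with libraries left out. The cause was not tested.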
